A study of Mus musculus with 12 samples.

Results

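The response of open chromatin to IGF1 that Wt and EF cells had in common was taken as the regions called in all 3 libraries labelled with IGF1 and in none of 4 libraries without it (gained), and the regions called in none of the 3 and in all 4 (lost). The rule found 425 gained and 25 lost regions, 450 members in all, out of 126008 regions called in at least 1 of the 7 libraries and of 153346 regions called in the 12 libraries of the series. Gained regions were thus 0.337% and lost regions 0.0198% of the regions of the 7 libraries. A region is a stretch of the mouse genome covered by overlapping peaks, and a peak is a place where the transposase of ATAC-seq cut more often than in the DNA around it. A gain or a loss is a pattern of calls and not a test of that region.

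IGF1, insulin-like growth factor 1, is a secreted growth factor that binds the receptor tyrosine kinase IGF1R. The receptor phosphorylates the substrates IRS1 and IRS2, which start PI3K and AKT signalling and so keep FOXO transcription factors out of the nucleus, and it also feeds the RAS and MAPK cascade that induces immediate early genes. In bone and limb, IGF1 is known as a growth signal for cartilage, osteoblasts and their mesenchymal precursors, and IGF1R signalling is needed for transformation of mouse fibroblasts by EWS::FLI1, the Ewing sarcoma fusion protein that the title of the series names.

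The cells were mouse cells labelled MSCLCs, and the series title speaks of bone mesenchymal stem cells. With IGF1, the labels give EF_IGF1 (replicate 1 from line S_220 and replicate 2 from line S_221) and Wt_IGF1 (1 library, line BM). Without IGF1, they give EF (replicate 3 from line S_220 and replicate 4 from line S_221) and Wt (replicate 3 from line BM and replicate 4 from line S_203). All 7 libraries were run on flowcell BSF_1013. The rule left out EF_IGF1_xeno (line S_221, same flowcell) and replicates 1 and 2 of EF and of Wt, which came from flowcell BSF_0654. The design text of the series names WT, EFPrx1, ha-EFPrx1 and hr-EFPrx1 cells. The sources used here do not give the meaning of these abbreviations, how the lines were made, or the dose and duration of IGF1. The labels do not say that libraries came from separate animals or cultures, so permutation p-values measure the spread between these libraries. Wt_IGF1 is a single library.

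The lists held 59290 peaks in EF_IGF1 replicate 1, 63463 in EF_IGF1 replicate 2 and 83679 in Wt_IGF1, against 52793 and 67306 in EF replicates 3 and 4 and 57297 and 69662 in Wt replicates 3 and 4. The means were 68811 ± 13044 with IGF1 (SD, n = 3) and 61764 ± 8032 without it (SD, n = 4), and their difference of 7046 lay within the spread between libraries (p = 0.457, two-sided exact permutation test). The genome background of a library, a stand-in for its depth, was 1.56, 1.47 and 1.04 reads in the 3 libraries with IGF1. It was 1.13, 1.34, 0.574 and 1.11 in the 4 without it. Wt_IGF1 thus lay within the range without IGF1, and both EF_IGF1 libraries lay above it. Paired by line name, the library with IGF1 was the higher in each line. The values were 1.04 against 0.574 in BM, 1.56 against 1.13 in S_220 and 1.47 against 1.34 in S_221. Beyond the counts with lists of equal length, the part of depth was not tested. The promoters of the mesenchymal regulators Prrx1, Twist1 and Twist2, of the collagen gene Col1a2 and of the osteoblast regulator Runx2 were called in all 7 libraries, except that Prrx1 was not called in Wt replicate 3. Of 10 mesenchymal markers chosen, 7 had a promoter in the RefSeq table used here, and those named are 5 of them. The other mesenchymal promoters held there, Eng among them, were called in no compared library. Markers without a promoter in that table could not be checked. By the share of regions in common out of the regions called in either library (Jaccard index), EF_IGF1 replicate 1 was closest to EF_IGF1 replicate 2 (0.661), and it was closer to EF replicate 4 of line S_221 (0.599) than to EF replicate 3 of line S_220, its own line by title (0.406, the lowest of 21 pairs). Counts without that library are therefore given beside those with it.

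Of the gained regions, 6 overlapped the promoter of a gene in the RefSeq table (250 bases before to 50 after the start, 32585 promoters of GRCm38.p6), and no lost region did. Their genes were Cass4, Bgn, Set, Nacc2 and 2 unnamed models. The same overlap was not counted for other regions, so 6 cannot be read as few or many. Of 418 gained regions with a measured distance, 5.02% lay within 1 kb of a start in that table (95% Clopper-Pearson interval 3.14 to 7.58). That share was 6.41% among regions called in 3 of the 7 libraries in any other combination (6.03 to 6.82). The promoters of Cass4, Bgn and Set are printed because the gained region covered most of each: 241 bases of Cass4 (chr2:172393394-172393693, plus strand), 208 bases of Bgn (chrX:73483351-73483650, plus strand) and all 300 bases of Set (chr2:30061746-30062045, plus strand). Capitals mark words that match 1 of the 9 motifs searched.
Cass4: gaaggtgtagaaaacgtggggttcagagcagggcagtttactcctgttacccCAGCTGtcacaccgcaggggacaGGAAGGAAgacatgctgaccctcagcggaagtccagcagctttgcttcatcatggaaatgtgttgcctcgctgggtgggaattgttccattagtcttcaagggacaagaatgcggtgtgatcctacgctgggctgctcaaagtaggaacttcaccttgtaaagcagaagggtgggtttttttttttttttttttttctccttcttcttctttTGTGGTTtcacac
Bgn: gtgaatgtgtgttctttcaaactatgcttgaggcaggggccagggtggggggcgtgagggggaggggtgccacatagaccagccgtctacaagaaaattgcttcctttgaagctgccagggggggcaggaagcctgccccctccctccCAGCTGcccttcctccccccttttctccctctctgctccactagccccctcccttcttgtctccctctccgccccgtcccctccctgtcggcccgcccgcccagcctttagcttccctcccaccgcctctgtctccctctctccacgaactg
Set: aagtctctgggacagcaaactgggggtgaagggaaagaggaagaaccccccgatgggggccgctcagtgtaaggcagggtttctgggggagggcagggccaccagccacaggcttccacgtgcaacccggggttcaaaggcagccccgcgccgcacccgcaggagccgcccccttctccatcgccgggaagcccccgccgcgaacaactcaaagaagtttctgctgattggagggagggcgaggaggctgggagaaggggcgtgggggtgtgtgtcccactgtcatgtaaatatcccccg

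The words were searched on both strands. The E-box word CAGCTG matched in Cass4 (bases 53 to 58 of the window, just before the start of the gained region) and in Bgn (inside the gained region), and it was present in 16.4% of all promoters of the table. Cass4 also held the ETS repeat GGAAGGAA (3.7% of all promoters) and the RUNX word TGTGGTT (5.29% of all promoters), both inside the gained region. The ETS word CCGGAAG (8.92%), the AP-1 word TGANTCA (7.85%), the TEAD word GGAATG (14.6%), the FOXO word TGTTTAC (3.67%), the CRE word TGACGTCA (1.8%) and the CEBP word TTGCNNAA (10.9%) had no match in these 3 windows, and Set matched none of the 9. The windows were 48% (Cass4), 63.7% (Bgn) and 64.7% (Set) G and C, beside a median of 53% and quartiles of 46% and 61.7% over all promoters.

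The region at Cass4, which codes for a scaffold protein of the Cas family at focal adhesions, had a fold over local background of 11.6 in EF_IGF1 replicate 1, 7.51 in EF_IGF1 replicate 2 and 9.01 in Wt_IGF1, and Wt replicate 2 of the other flowcell, without IGF1, called it at 4.57. The region at Bgn, which codes for biglycan, a small proteoglycan of bone and cartilage matrix, had folds of 5.14, 4.94 and 4.73 in the same order of libraries. The region at Set, which codes for a histone chaperone that inhibits the phosphatase PP2A, had folds of 2.71, 2.97 and 3.89. The folds at Set were below 4 in all 3 libraries and those at Cass4 were above 7. Folds and p-values of a peak are the authors' own values.

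The count of gained regions was first set among the 35 ways of naming 3 of the 7 libraries as the ones with IGF1. With the labels as given there were 425 gained regions, and 7 other orders gave more (exact one-sided permutation test, p = 0.229, where 35 orders allow no p below 0.0286). The other orders ran from 7 to 4926 regions with a median of 184.5, and 6 of the 7 orders with more regions named Wt_IGF1. The order that set Wt_IGF1 and both Wt libraries apart gave the 4926. Among the 18 orders that name 1 Wt and 2 EF libraries, the labelled order gave the most gained regions, the next having 420 (exact one-sided permutation test, p = 0.0556, the smallest these 18 orders allow). Among the 8 orders within lines it again gave the most, the next having 360 (exact one-sided permutation test, p = 0.125, the smallest possible). The lost regions stood low by the same measure: 26 of the 34 other orders gave more than 25 lost regions (exact one-sided permutation test, p = 0.771), as did 12 of the 17 others that kept genotypes (p = 0.722 by the same exact test). For gained regions, only the test over all 35 orders could pass the threshold of 0.05, and it did not. The 18 and the 8 orders allow no p below 0.0556 and 0.125, so those tests could not pass it whatever the counts.

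**Figure D1:**
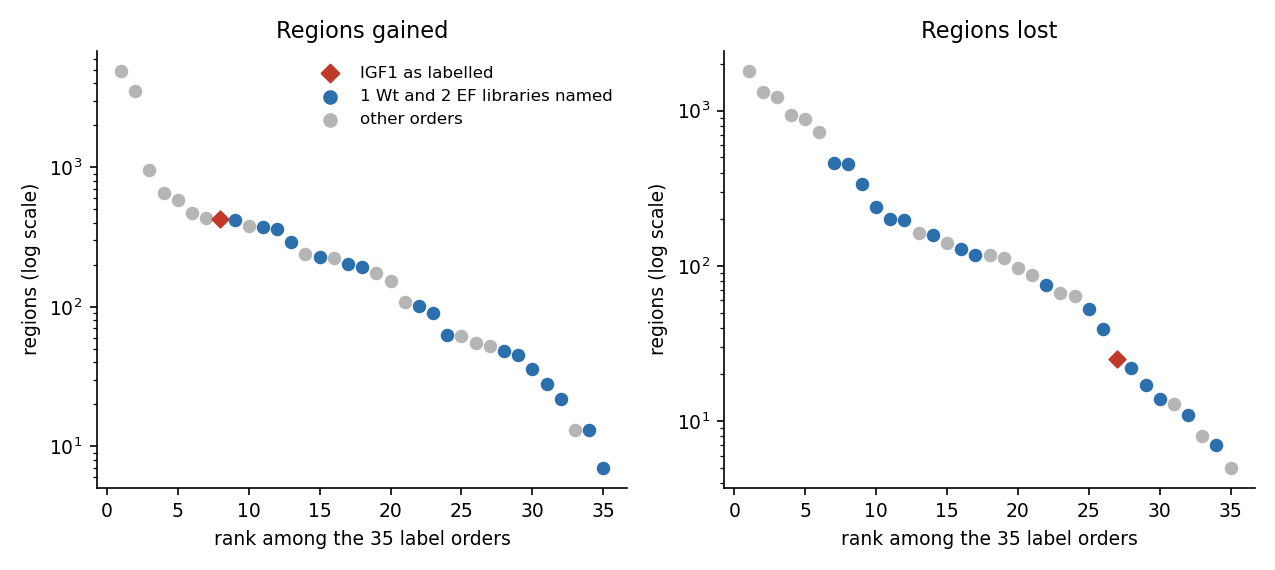
Number of gained (left) and lost (right) regions, on log axes, for each of the 35 ways of naming 3 of the 7 libraries as with IGF1, ranked from the most to the fewest. The labelled order (diamond) ranks 8 with 425 gained regions and 27 with 25 lost regions; blue points name 1 Wt and 2 EF libraries.

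Both counts moved with single libraries. Without EF_IGF1 replicate 1 the rule gave 992 gained and 43 lost regions, without EF_IGF1 replicate 2 it gave 789 and 46, and without Wt_IGF1 it gave 2922 and 1350. Without EF replicate 4 there were 1747 gained and 80 lost regions, without Wt replicate 4 there were 665 and 47, and without EF replicate 3 there were 492 and 87. Without Wt replicate 3 there were 624 gained and 252 lost regions. Among orders of the 6 libraries left, exact one-sided permutation p-values ran from 0.1 to 0.6 for gained and from 0.133 to 0.933 for lost regions. With every list shortened to its 20000 peaks of lowest p-value, 88 regions were gained (p = 0.371 by the same exact test) and 43 were lost (p = 0.486).

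Shared regions are by rule those that both genotypes gave, so each genotype alone must give at least as many. In Wt, a gain needed a call in 1 library, the one with the longest list, and a loss needed calls in 2. The numbers gained and lost in Wt are therefore not on equal terms. In EF cells, 4135 regions (3.28%) were gained, that is called in EF_IGF1 replicates 1 and 2 and in neither EF library, and 3191 (2.53%) were lost by the reverse pattern. In Wt cells, 16308 regions (12.9%) were gained, being called in Wt_IGF1 and in neither Wt library, and 957 (0.759%) were lost. The EF and the Wt comparison share no library. The 425 gained regions were 10.3% of those gained in EF and 2.61% of those gained in Wt. A further 290 regions were gained in Wt and lost in EF, which is 1.78% of those gained in Wt and 9.09% of those lost in EF. The 25 lost regions were 0.783% of those lost in EF and 2.61% of those lost in Wt, and 14 regions were gained in EF and lost in Wt. Without EF_IGF1 replicate 1, 9.48% of the regions gained in EF were gained in Wt, and 9.5% of those lost in EF were.

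How these shares stand beside the background depended on which regions were counted. Over all 126008 regions, 12.9% were gained in Wt, above the 10.3% of those gained in EF. That total includes 9636 regions called in Wt_IGF1 alone and 2497 called in EF_IGF1 replicates 1 and 2 alone, which could not be gained in the other genotype. Among the 63675 regions called in at least 1 Wt and 1 EF library of the 7, a choice made after seeing the data, 25.9% of the 1638 gained in EF were gained in Wt, beside 10.5% of all. Of the 6672 gained in Wt, 6.37% were gained in EF, beside 2.57% of all, and of the 2506 lost in EF, 11.6% were gained in Wt. Among regions absent from both Wt libraries, 14.5% of those gained in EF (425 of 2922, 95% Clopper-Pearson interval 13.3 to 15.9) and 29.7% of those lost in EF (290 of 975, 26.9 to 32.7) were called in Wt_IGF1, so the order of regions gained and lost in EF turned with the regions counted. Of all regions absent from both Wt libraries, 16308 were called in Wt_IGF1 and 32548 were not. Gain in EF was seen in 2.61% of the former and 7.67% of the latter. These shares are not on equal terms. Each of the 32548 has a call in an EF library, being counted only if 1 of the 7 libraries called it. Of the 16308, the 9636 called in Wt_IGF1 alone have no such call and could not be gained in EF. Among the other 6672 the share was 6.37%, nearer to the 7.67%. None of these shares was tested over libraries, and the intervals cover counting error only.

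More regions missed the rule by 1 library than met it. Regions called in all 3 libraries with IGF1 and in 1 without it numbered 1828, and in 1322 of them the 1 was EF replicate 4. Regions called in 2 of the 3 and in none of the 4 numbered 3428, and 2497 of these were not called in Wt_IGF1. On the side of loss, 1364 regions were called in all 4 libraries without IGF1 and in 1 with it, which was Wt_IGF1 for 1325. Regions called in 3 of the 4 and in none of the 3 numbered 366, and 227 were not called in Wt replicate 3. The weakest call of a gained region had a median −log10 q of 5.98, beside 6.72 for the regions with 1 call too many and 7.05 for those with 1 call too few. For lost regions that median was 5.57, beside 7.04 and 5.87. The regions with 1 call too few have 1 call less to take the weakest from, which by itself raises the value. Their medians are thus not on equal terms with those of the members. In 123 of the 425 gained regions (28.9%) and 7 of the 25 lost regions (28%) the weakest call lay under a −log10 q of 5.

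**Figure D2:**
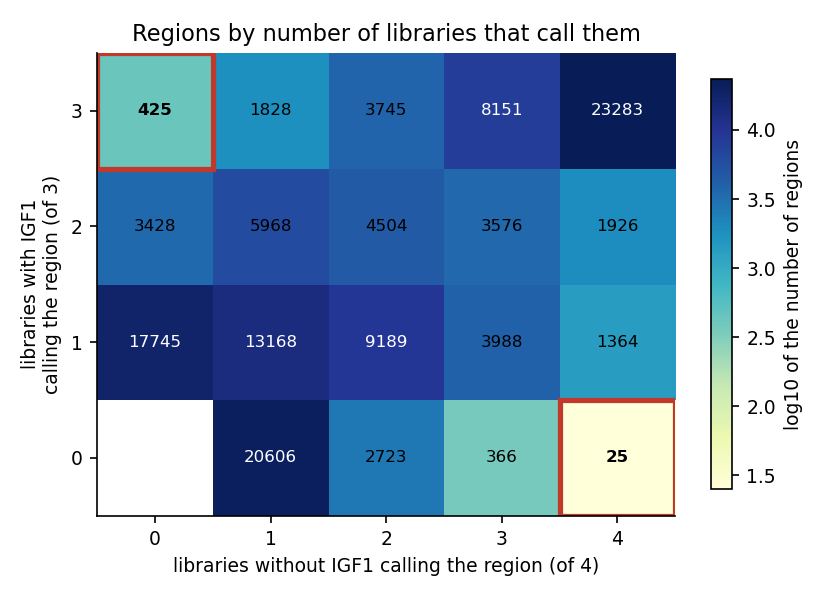
Number of regions by how many of the 3 libraries with IGF1 (vertical) and how many of the 4 without it (horizontal) call them; shading is the log10 of the number. The outlined cells are the 425 gained and 25 lost regions, beside 23283 regions called in all 7 libraries.

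Gained regions had lower median values than all regions of each library that called them. By rule, gained regions lack a call in 4 of the 7 libraries and lost regions in 3, while all regions of a library include the 23283 called in all 7. Regions called in like numbers of libraries were not compared for these values, so the lower medians cannot be read as a trait of the response to IGF1. In EF_IGF1 replicate 1 their fold over local background ran from 2.05 to 16.4 with a median of 6.25, beside 7.62 over all regions of that library. In EF_IGF1 replicate 2 it ran from 2.28 to 15.5 with a median of 6.1, beside 7.52, and in Wt_IGF1 from 2.52 to 12.7 with a median of 5.4, beside 7.37. The peak summits of gained regions held a median of 21, 20 and 13 reads in these 3 libraries, beside 36, 32 and 21 over all their regions. The medians of the members thus lay below those of their libraries in all 3. Lost regions had median folds of 5.81 and 5.52 in EF replicates 3 and 4 and of 5.56 and 6.59 in Wt replicates 3 and 4, beside 7.39, 7.65, 7.42 and 8.16 over all regions of those libraries.

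**Figure D3:**
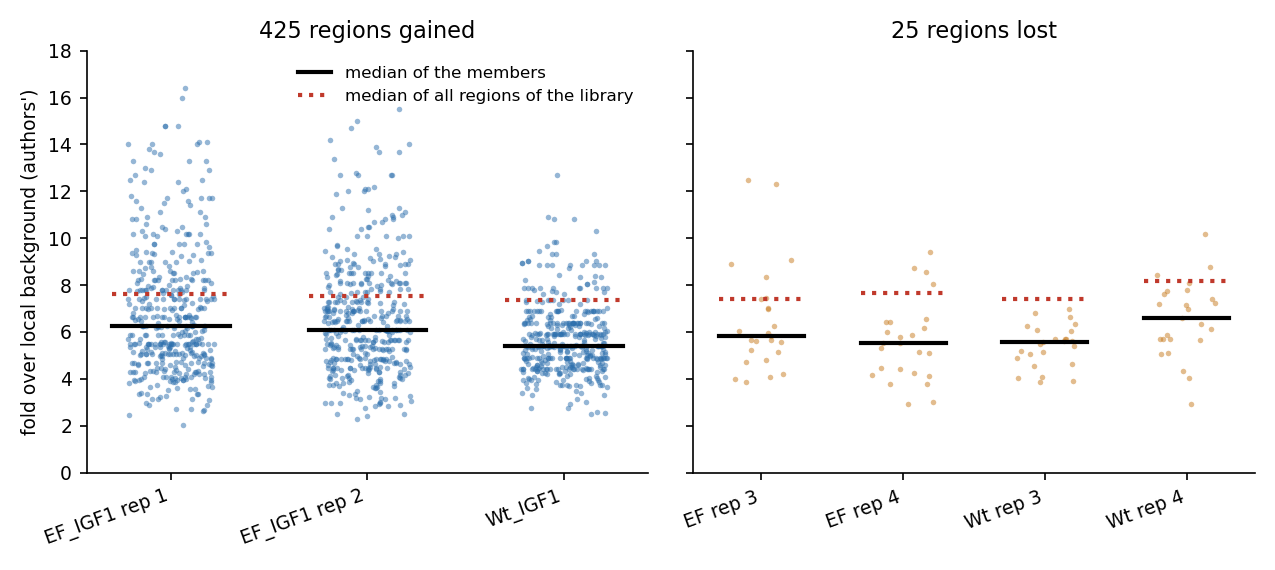
Fold over local background (the authors' value, linear axis) of each gained region in the 3 libraries with IGF1 (left) and of each lost region in the 4 libraries without it (right). Solid lines are medians of the members (5.4 to 6.25 for gained, 5.52 to 6.59 for lost) and dotted lines medians of all regions of the library, which lie above them in every library.

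Gained regions lay mostly away from promoters. Their median width was 428 bases (213 to 1233), and 6.12% had a summit within 1 kb of either end of a protein-coding gene (26 of 425, 95% Clopper-Pearson interval 4.03 to 8.84). That share was 6.58% among regions called in 3 of the 7 libraries in any other combination, 12% over all regions and 35% among regions called in all 7. None of the 25 lost regions, 419 bases wide at the median, had a summit there, which allows a share of up to 12% by 3 counts of 25 (exact upper bound 13.7%), beside 7.31% among other regions called in 4 libraries. Within genes lay 43.3% of the gained regions (38.5 to 48.2), beside 51% of other regions called in 3 libraries (50.2 to 51.8). Among regions called in EF_IGF1 replicates 1 and 2 alone of the 7 that share was 46.8% (44.8 to 48.8), and its interval overlapped that of the gained regions. The median distance from a gained region to the nearest transcription start of the promoter table was 20221 bases, over 418 gained regions. That table did not hold every gene, which can lengthen such distances. The region 2854 bases from Klf5 lay 196066 bases from any start in it. Over whole libraries, the share of summits near a gene end was 19.2% ± 1.89 with IGF1 (SD, n = 3) and 19.9% ± 1.83 without it (SD, n = 4), a difference of -0.643 percentage points within the spread between libraries (p = 0.629, two-sided exact permutation test).

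Gained regions were scattered over the genome. They were 0.503% of the regions of chromosome 19 and 0.463% of those of chromosome 15, the highest shares, and 0.155% of those of chromosome 1, the lowest. Between neighbouring gained regions of a chromosome the median gap was 3448326 bases, and 13 of 405 gaps were within 100 kb. For 379 gained regions the nearest protein-coding gene was at most 100 kb away, which named 371 genes, and 46 had none so near. For the lost regions these numbers were 23 regions, 23 genes and 2 regions. No gene had both a gained and a lost region.

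The strongest gained region, ranked by its weakest call, lay inside Shtn1 (chr19:59071204-59071787 of GRCm38), which codes for shootin 1, a protein that couples actin flow to adhesion in growing axons. Its fold was 12.7 in EF_IGF1 replicate 1, 13.4 in EF_IGF1 replicate 2 and 12.7 in Wt_IGF1, close to even over the 3 libraries. It was also called in EF_IGF1_xeno (6.07) and in Wt replicate 2 of the other flowcell (5.02), a library without IGF1. Of the other 9 regions of the top 10, 8 had a fold in Wt_IGF1 between 6.62 and 9.34, and 1 had 9.68.

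Next among those near a gene came Ppp1r32 (chr19:10495653-10496030), with folds of 8.56 and 5.71 in EF_IGF1 replicates 1 and 2 and 6.94 in Wt_IGF1. The region inside Ddx10 (chr9:53132830-53133267), which codes for a DEAD-box RNA helicase, had 14.8 and 10.1 in EF_IGF1 replicates 1 and 2 and 9.34 in Wt_IGF1. The region near Lcmt1 (chr7:123442089-123442472), which codes for the enzyme that methylates the catalytic subunit of PP2A, had 14.8 and 11.3 in EF_IGF1 replicates 1 and 2 and 9.05 in Wt_IGF1. At Ddx10 and Lcmt1 both EF_IGF1 libraries lay above Wt_IGF1, whereas at Ppp1r32 they lay on either side of it. The region inside Rap1gap2 (chr11:74572612-74573061), which codes for a GTPase-activating protein of the small GTPase Rap1, had 8.81, 7.93 and 7.72 in the same order of libraries. The region inside Ikzf3 (chr11:98469688-98470122), which codes for the lymphoid transcription factor Aiolos, had 10.3, 8.16 and 8.72, and the region near Fam126a (chr5:24053317-24054025), which codes for hyccin, had 8.27, 10 and 6.62. The Fam126a region was not called in EF_IGF1_xeno, and the other 7 named regions of the top 10 were. Wt replicate 2, without IGF1, called Ppp1r32 (6.17), Cass4 (4.57), Rap1gap2 (10.6, above its fold in all 3 libraries with IGF1) and Fam126a (6.64) as well as Shtn1, and it called 6 of the top 10 in all. The 2 remaining regions of the top 10 had no protein-coding gene within 100 kb (chr12:117389622-117390156, which Wt replicate 2 also called, and chr10:54839036-54839370).

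Few genes gathered more than 1 gained region. Sub1, which codes for the transcriptional coactivator PC4, had 3 (chr15:11989645-11990005, chr15:12030248-12030657 and chr15:12036766-12037614) of its 14 regions. The third of these had folds of 11.4 and 8.7 in EF_IGF1 replicates 1 and 2 and 4.04 in Wt_IGF1, and the first had 9.04, 6.44 and 7.21. The first lay inside Sub1, and the others lay 34349 and 41251 bases from it. The named genes with 2 were Eomes, a T-box transcription factor, Sox6, a transcription factor of chondrocyte differentiation, Tbc1d4, the AKT substrate that controls traffic of the glucose transporter GLUT4, Adgrv1, an adhesion receptor, and Col15a1, a basement membrane collagen. The regions given to Eomes (chr9:118421218-118421703 and chr9:118378965-118379470) lay 56681 and 99003 bases from the gene. They had folds of 10.2 and 5.08 in EF_IGF1 replicate 1, 12.7 and 10.1 in EF_IGF1 replicate 2, and 6.39 and 6.39 in Wt_IGF1. The regions inside Sox6 (chr7:115734194-115734656 and chr7:115732900-115733252) had folds of 12.4 and 7.25, 5.67 and 5.26, and 6.88 and 5.4 in the same order. In both genes the EF_IGF1 replicate with the higher folds differed, replicate 2 for Eomes and replicate 1 for Sox6. Tbc1d4 had 1 gained region inside the gene (chr14:101568719-101569189), with 7.42, 9.47 and 4.91, and 1 at 89973 bases from it.

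At the genes of the IGF1 pathway few regions were members, as over all regions (0.337% gained). The ligand Igf1, its receptor Igf1r, the insulin receptor Insr and the substrates Irs1 and Irs2 had no gained and no lost region among 25, 45, 12, 12 and 38 regions. At Igf1r, 18, 14 and 27 of the 45 regions were called in EF_IGF1 replicates 1 and 2 and Wt_IGF1, against 12 and 20 in EF replicates 3 and 4 and 16 and 26 in Wt replicates 3 and 4. At Igf1, 5, 6 and 20 of the 25 regions were called in EF_IGF1 replicates 1 and 2 and Wt_IGF1, against 10 and 7 in EF replicates 3 and 4 and 12 and 15 in Wt replicates 3 and 4. The Igf1 calls were thus fewer in both EF_IGF1 libraries than in either EF library, and more in Wt_IGF1 than in either Wt library. Of the 153346 regions of the series, EF_IGF1 replicates 1 and 2 called 36.8% and 39.5% and Wt_IGF1 51.9%, against 32.9% and 42.4% in EF replicates 3 and 4 and 35.3% and 43.7% in Wt replicates 3 and 4, so Wt_IGF1 also called the most regions overall. For Yap1, the Hippo pathway coactivator named in the series title, there was no gained or lost region among 20, and likewise none among 23 at Prrx1 and 9 at the cell cycle inhibitor Cdkn2a.

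Of the list of 17 ligands, receptors and substrates, only Grb14 held a gained region (1 of the list's 235 regions, 0.426%, beside 0.337% over all regions). Grb14 codes for an adaptor that binds and inhibits the insulin receptor, and its region (chr2:64948814-64949153, inside the gene) had folds of 7.81 and 6.07 in EF_IGF1 replicates 1 and 2 and 8.84 in Wt_IGF1. Downstream, the PI3K, AKT, mTOR and FOXO list had 3 gained regions of 481 (0.624%) and no lost one. The region inside Pik3r1 (chr13:101690101-101690514), which codes for the p85 regulatory subunit of PI3K, had 14.1 and 14 in EF_IGF1 replicates 1 and 2 and 5 in Wt_IGF1, so the EF_IGF1 libraries stood well above Wt_IGF1. The region near Foxo6, a FOXO transcription factor (chr4:120247433-120247844), had 5.29, 7.49 and 6.36, and the region inside Trib2 (chr12:15813603-15813914), which codes for a Tribbles pseudokinase, had 3.89, 2.95 and 3.59. The MAPK feedback and immediate early list had no gained and no lost region among 379, and the list of IGF binding proteins had no gained region among 168. The list of IGF binding proteins held the only lost region at a gene of any list (1 of 168, 0.595%, beside 0.0198% of all regions). It lay near Igf2bp3, which codes for an RNA-binding protein of the IGF2 mRNA.

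Over all 23 lists, 5827 regions belonged to listed genes and 21 of them were gained (0.36%), close to the 0.337% of all regions. Without EF_IGF1 replicate 1, 42 were gained (0.744%), beside 0.817% of all regions. There was a gained region in 13 lists and none in 10, and no list held more than 3. Among lineage genes these were the adipogenic regulators Ebf2 and Klf5 (2 of 306 regions), Sox6 for cartilage (2 of 186), and none of 257 osteogenic and none of 399 mesenchymal stem and limb regions. Matrix genes had 3 of 592: Bgn, and the fibril-associated collagens Col12a1 and Col14a1. The EWS::FLI1 targets of human Ewing sarcoma had 2 of 374, both at Sox6. The YAP and TEAD targets had 1 of 472, at F3, which codes for tissue factor, and the Hippo core had none of 283. The WNT, hedgehog, BMP and TGF-beta list had 1 of 771, at the ligand Bmp7, whose region (chr2:172939968-172940893) had 7.91 and 8.81 in EF_IGF1 replicates 1 and 2 and 6.88 in Wt_IGF1. The posterior HOX genes had 1 of 64, at Hoxc9, and the anterior HOX genes, cell cycle genes and inflammatory genes had none of 70, 211 and 270.

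**Figure D4:**
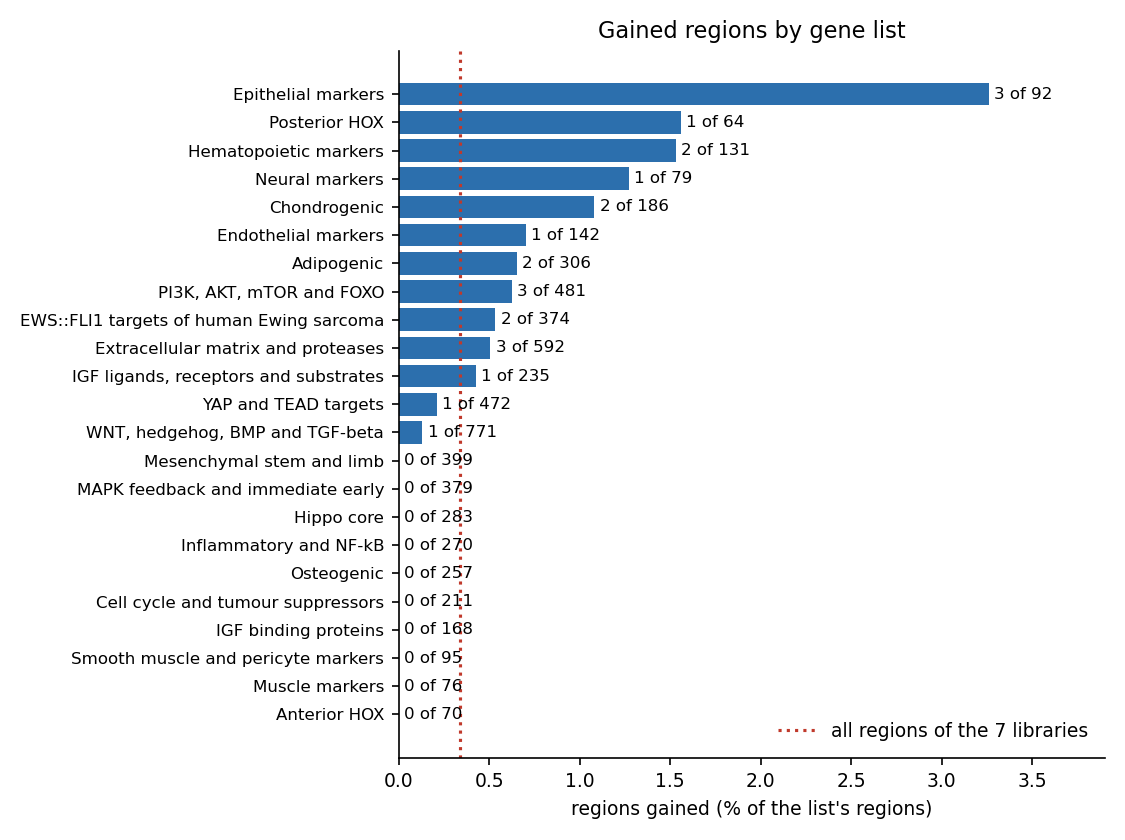
Percent of each list's regions that were gained, with the number gained of the number of regions; the dotted line is the 0.337% gained over all regions. The highest share, 3.26%, is 3 of 92 regions at epithelial marker genes, and 10 lists have none.

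Markers of other cell types had gained regions too. Epithelial markers had 3 of 92 regions, at the keratin genes Krt8, Krt14 and Krt18, hematopoietic markers 2 of 131, at Cd68 and Runx1, endothelial markers 1 of 142, at Vwf, neural markers 1 of 79, at Pax6, and muscle, and smooth muscle and pericyte markers none of 76 and 95. At the Krt14 region (chr11:100207479-100207933) the folds were 9.76 and 7.38 in EF_IGF1 replicates 1 and 2 and 5.4 in Wt_IGF1. The promoters of the defining markers in the table (3 epithelial, 3 blood, 3 neural and 2 muscle genes) were called in none of the 7 libraries. Of 3 endothelial promoters, Kdr and Tek were called in Wt_IGF1 and in neither EF_IGF1 library, against Kdr in EF replicate 3, both in EF replicate 4, Tek in Wt replicate 3 and both in Wt replicate 4. Of 3 smooth muscle and pericyte promoters, Acta2 was called in all 7 libraries and Cspg4 in all but EF replicate 3. In such bulk libraries, fewer cells of a type and less open chromatin per cell cannot be told apart.

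The 25 lost regions were led by one near Gask1a (chr9:121947743-121948214), which codes for a Golgi-associated protein. Its folds were 7 and 6.41 in EF replicates 3 and 4 and 6.63 and 6.96 in Wt replicates 3 and 4, nearly even, and it was called in no other library. The region inside Lgr6 (chr1:135020353-135020875), which codes for a receptor of the WNT-enhancing R-spondins, had 3.86 and 3 in EF replicates 3 and 4 and 3.91 and 4.34 in Wt replicates 3 and 4. The region near Syk (chr13:52679935-52680310), a tyrosine kinase of immune receptor signalling, had 8.33 and 4.27 in EF replicates 3 and 4 and 6.25 and 6.13 in Wt replicates 3 and 4. Of these 3 regions the EF libraries lay furthest apart at Syk, where EF replicate 3 was the highest of the 4 libraries. Others lay at Pde2a, a phosphodiesterase of cyclic nucleotides, Kdm4b, a histone demethylase, Pag1, an adaptor that recruits the SRC inhibitor CSK, Cyth3, an ARF exchange factor that binds the PI3K product PIP3, Fbln5, a protein of elastic fibres, Cyp4f13, Znrf1, Fam3b and Cdc42bpa. Near Igf2bp3, which codes for an RNA-binding protein of the IGF2 mRNA, the region (chr6:49228227-49228639) had 5.97 and 8.06 in EF replicates 3 and 4 and 5.49 and 7.6 in Wt replicates 3 and 4.

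Calls in the 5 libraries that the rule did not use were compared next. Of the 425 gained regions, 203 were called in EF_IGF1_xeno (47.8%, 95% Clopper-Pearson interval 42.9 to 52.6). Of the 2497 regions that, of the 7 libraries, EF_IGF1 replicates 1 and 2 alone called, 48.9% were (46.9 to 50.8), so the intervals of these shares overlapped. Of the 9636 regions called in Wt_IGF1 alone, 0.498% were called in EF_IGF1_xeno (0.368 to 0.66), and of the 15523 other regions called in 3 of the 7 libraries, 21.2% (20.6 to 21.9). Over all 126008 regions of the 7 libraries, EF_IGF1_xeno called 32.1%. EF_IGF1_xeno is line S_221, that of EF_IGF1 replicate 2 by title, on the same flowcell. Without EF_IGF1 replicate 1, 24.8% of 992 gained regions were called in it (22.1 to 27.6), beside 24.3% of 5997 regions called in EF_IGF1 replicate 2 alone. Gained regions called in EF_IGF1_xeno had a median fold of 7.42 in EF_IGF1 replicate 1 and 6.9 in EF_IGF1 replicate 2, against 5.47 and 5.67 for gained regions not called there, while in Wt_IGF1 the medians were 5.41 and 5.4.

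Libraries without IGF1 from flowcell BSF_0654 also called some gained regions: 8.94% in EF replicate 1 (6.41 to 12.1), 3.06% in EF replicate 2 (1.64 to 5.17), 0.235% in Wt replicate 1 (0.00596 to 1.3) and 16.5% in Wt replicate 2 (13.1 to 20.3). At least 1 of these 4 libraries called 108 gained regions (25.4%), beside 39.9% of other regions called in 3 libraries and 12.2% of those called in both EF_IGF1 libraries alone. These libraries held 52411, 27309, 7723 and 60495 peaks, and they called 36.5%, 20.1%, 5.64% and 28.5% of all regions of the 7 libraries. Wt replicate 2 differed from the 7 compared libraries in calling the promoters of the blood markers Ptprc and Ikzf1, and its part in these shares was not tested. In all, 161 gained regions (37.9%, 33.3 to 42.7) were called in none of the 5 libraries, beside 47.4% of other regions called in 3 libraries and 45.1% of those called in both EF_IGF1 libraries alone. Over all regions of the 7 libraries that share was 43.5%. Among the 161 were those at Grb14, Foxo6, Ebf2, Hoxc9, Col14a1 and Vwf.

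Of the 25 lost regions, none was called in EF_IGF1_xeno, which allows a share of up to 12%, beside 27.6% of other regions called in 4 of the 7 libraries and 5.89% of the 1325 regions called in every compared library but the EF_IGF1 libraries. Without EF_IGF1 replicate 1, 2 of 43 lost regions were called there. EF replicate 1 called 13 of the 25 (52%, 31.3 to 72.2), beside 36.6% of other regions called in 4 libraries and 81.6% of the 1325. EF replicate 2 called 2, Wt replicate 2 called 4 and Wt replicate 1 called none. The lost regions at Lgr6, Syk, Pag1, Cyth3, Fbln5, Znrf1 and Cdc42bpa were called in EF replicate 1, and those at Gask1a, Pde2a, Cyp4f13, Fam3b and Igf2bp3 in none of the 5 libraries.

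**Figure D5:**
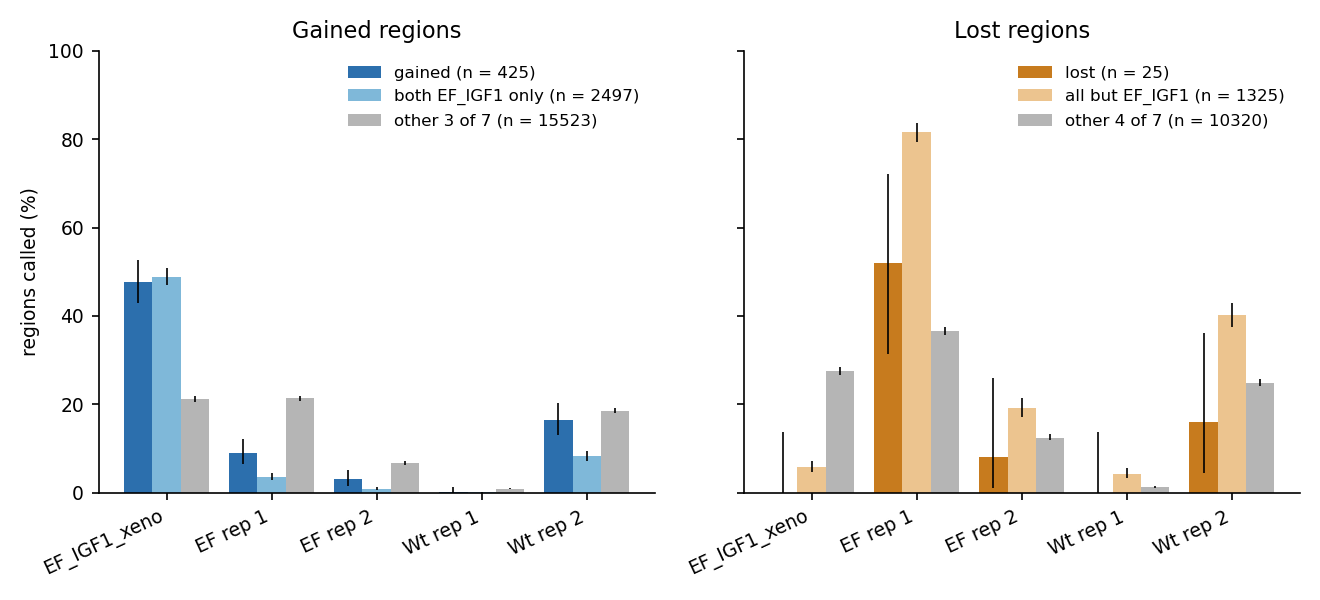
Percent of regions called in each of the 5 libraries that the rule did not use, with 95% Clopper-Pearson intervals (counting error only), for gained regions (left), lost regions (right) and regions called in like numbers of the 7 libraries. EF_IGF1_xeno called 47.8% of the gained and none of the 25 lost regions; regions of both EF_IGF1 libraries only reach 48.9% there.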

How the data were processed

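Open chromatin was measured by ATAC-seq, with cells opened by digitonin and sequenced single-end, per the labels' protocols. The authors called peaks per library with MACS2 on GRCm38.p3, per the submitters' processing notes; the sources used here name no version, aligner, read filter or control. The deposited lists give for each peak its position, a score, a fold over local background (a ratio), and the −log10 of its p-value and q-value. The lowest deposited −log10 q was 2.03 to 2.60 per library. The sources used here give no read totals, so depth is described by list length and genome background.

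Peaks of the 12 libraries on chromosomes 1 to 19 and X were merged where they overlapped by at least 1 bp, leaving out 23 to 43 peaks per library. A library was taken to call a region if any of its peaks lay in it. Fold and p-value were solved together for the reads at a summit and its local background (Poisson tail, within 0.001), and the genome background is the lowest background solved in a library. Single regions were not tested: the lists hold calls, and an exact permutation of 3 against 4 libraries gives no p below 0.0286, too large for a correction over all regions. Counts and library means were tested by exact permutation over 35 label orders, 18 with genotypes kept, and 8 within lines, where the labels' line names pair libraries of BM, S_220 and S_221. The code was tested on simulated data with Python 3.11.15, numpy 2.4.6, pandas 2.3.3 and scipy 1.17.1.

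Genes (21631 protein-coding) and promoters came from RefSeq tables of GRCm38.p6, whose patches keep the chromosome coordinates of p3. Promoters of chromosome 18 were not analysed here. The promoter table did not hold every gene, which limits promoter overlaps and distances to starts. Motif shares of whole regions need the genome and were not analysed here. A region was given to the nearest gene interval within 100 kb. The genes named were, in each direction, the 12 with most member regions, those of the 10 strongest regions, up to 4 genes with member regions per list, and Igf1, Igf1r, Irs1, Irs2, Insr, Yap1, Prrx1 and Cdkn2a whatever their values; unnamed models were left out. The members and the 23 lists were chosen with earlier results of these data known. Alternatives were stricter peaks, equal list lengths, summit windows, other regions to merge, other distances and leaving out each library.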

Additional observations from a re-analysis of the deposited data

Results flagged for a closer look

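Of 25 sets of values over the 4 libraries without IGF1 that were screened for a sample far from the others, 1 was set apart: the share of regions at posterior HOX genes that was called. It was 18.8% in Wt replicate 3, against 42.2% to 45.3% in the other 3 libraries. Chance sets apart about 1 in 20 such groups. The posterior HOX genes hold 1 gained region, at Hoxc9, which the rule requires to be absent from Wt replicate 3.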

How the results depend on the processing

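Leaving out each library in turn gave 492 to 2922 gained and 43 to 1350 lost regions. It gave differences in peaks per library from -388 (without Wt_IGF1) to 11806, and in the share of summits near a gene end from -1.54 to 0.336 percentage points (0.336 without Wt_IGF1 and 0.189 without EF replicate 3); the cause was not tested. Without EF_IGF1 replicate 1, chosen after seeing the data, 24.8% of gained regions were called in EF_IGF1_xeno and 42 gained regions lay at listed genes. With 20000 peaks per library, 88 regions were gained and 43 lost, and 5.55% of the regions gained in EF were gained in Wt; fewer peaks were used. Among regions called in both genotypes that share was 25.9%, since regions of a single genotype were left out. Stricter peaks, summit windows and regions merged from the 7 libraries kept gained regions at 390 to 457 and lost regions at 25 to 32. With the replicate block by line name (8 orders) the exact permutation p was 0.125 for gained and 0.625 for lost regions, and no other call changed. Few libraries, 1 of them Wt_IGF1, and unknown read depth limit all counts.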
